A study of Mus musculus with 6 samples.

Results

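Solute carrier genes that move inorganic ions by exchange or cotransport were examined in mouse prostate. They are all the genes of the deposited table whose symbols name the families Slc4, Slc8, Slc9, Slc12, Slc20, Slc24, Slc26 or Slc34, that is 52 of 34745 genes in 8 families. RNA was sequenced from the prostates of 6 male C57BL/6 mice that were 6 to 8 weeks old before acclimatization. The 3 mice of the T + E2 group carried under the skin a slow-release pellet of testosterone (T) and estradiol (E2) in a ratio of 10 to 1, renewed monthly, for 12 weeks. The 3 mice of the control (CON) group had the skin incision alone, without a hormone-free pellet, for the same 12 weeks. The sources used here describe no castration, and the pellet gave both hormones together, so their effects cannot be told apart. The study used this treatment to model benign prostatic hyperplasia with bladder outlet obstruction, and the comparison asked which transcripts differed after it. Each library was prepared from prostate tissue of 1 mouse, and which lobes were taken is not given in the sources used here.

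Prostate fluid is made by an epithelium that moves sodium, potassium, chloride, bicarbonate, phosphate, calcium and hydrogen ions across its cells. The sodium pump builds the sodium gradient, and many of the carriers examined here use that gradient, or the chloride and bicarbonate gradients that follow from it, to move other ions. Slc9 genes encode sodium-hydrogen exchangers, Slc4 genes bicarbonate carriers, Slc26 genes anion exchangers, Slc12 genes cation-chloride cotransporters, Slc20 and Slc34 genes sodium-phosphate cotransporters, and Slc8 and Slc24 genes sodium-calcium exchangers.

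The bases before the transcription starts of the genes with the largest rise, Slc9a3, and the largest falls among members that passed the test, Slc12a8 and Slc9a9, are shown because hormone receptors could meet DNA there. They come from RefSeq on build GRCm38.p6, are written 5′ to 3′ on the strand of the gene, and end at the base before the RefSeq start, which can differ from the gene start in the deposited table. The windows are chr13:74121163-74121412 for Slc9a3, chr16:33517078-33517327 for Slc12a8 and chr9:94669642-94669891 for Slc9a9, all on the plus strand. Each is 250 bases long. Slc12a8 has further RefSeq windows, and the one shown ends just before its gene start in the deposited table. The Slc9a3 window ends at 74121412, while its gene starts at 74121515 in the deposited table, and the bases between were not searched.
Slc9a3: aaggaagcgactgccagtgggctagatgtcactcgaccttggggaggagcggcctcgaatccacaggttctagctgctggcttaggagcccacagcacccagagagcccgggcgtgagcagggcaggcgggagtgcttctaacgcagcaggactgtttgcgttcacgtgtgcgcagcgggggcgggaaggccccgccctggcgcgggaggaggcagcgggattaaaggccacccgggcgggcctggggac
Slc12a8: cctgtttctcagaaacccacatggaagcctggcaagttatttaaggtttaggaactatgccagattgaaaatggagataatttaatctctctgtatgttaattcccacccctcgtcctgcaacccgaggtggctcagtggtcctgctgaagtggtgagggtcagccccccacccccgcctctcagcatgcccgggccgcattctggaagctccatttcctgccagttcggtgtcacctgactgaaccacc
Slc9a9: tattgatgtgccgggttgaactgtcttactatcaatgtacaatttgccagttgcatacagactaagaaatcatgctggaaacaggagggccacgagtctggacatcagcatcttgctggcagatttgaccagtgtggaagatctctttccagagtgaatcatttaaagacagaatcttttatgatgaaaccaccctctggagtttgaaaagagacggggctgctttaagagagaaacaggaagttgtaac
None of these windows held AGAACA, the hexamer bound by the androgen receptor, or AGGTCA, the hexamer bound by oestrogen receptors, on either strand. Over all 32851 RefSeq promoter windows of this length, 16.1% held AGAACA and 14.0% held AGGTCA. The 8 members that passed both thresholds used below have 10 such windows, of which 0 held AGAACA and 1, that of Slc34a3, held AGGTCA. In the Slc34a3 window AGGTCA starts at position -33 and its reverse complement TGACCT at position -6, counted from the RefSeq start. A GENCODE M21 transcript of Slc34a3 begins upstream of that start, so these letters lie in its first exon. The inverted repeats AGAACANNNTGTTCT and AGGTCANNNTGACCT were in 3 and 7 of all windows and in 0 windows of the tested members. RefSeq windows were matched for 39 of the 52 members. A match or its lack describes these letters in these windows and says nothing of the binding of a receptor.

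Reads counted on genes totalled between 14816146 and 16555549 per mouse, and the 52 members took 0.249 to 0.358% of them. Values are given as deposited counts, as counts relative to library size, scaled between libraries (CPM), or as FPKM, which the authors divided by gene length and which alone allows levels of different genes to be compared. The summed CPM of 8 seminal vesicle genes was 10325 in CON replicate 2 and 643 in T + E2 replicate 2, against 0.629 to 4.11 in the other 4 mice. CON replicate 2 also had the highest summed CPM of fat and skeletal muscle genes, so counts are also given below without these 2 mice. The 7 luminal prostate markers were detected in all 6 mice. Of these, Pbsn, Tgm4 and Krt18 were lower in the T + E2 group, and markers such as Krt8, Hoxb13 and Tmprss2 did not pass the test. In whole tissue, fewer cells of a type and less RNA per cell cannot be told apart.

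Enough counts for a test were present for 37 of the 52 members. Members lower in the T + E2 group outnumbered those higher. At an adjusted p under 0.05 (edgeR quasi-likelihood test, adjusted over all 15580 genes tested), 12 members (32.4%) were lower and 4 (10.8%) were higher, where 9.25% of all tested genes were lower and 10.4% were higher. With a change of more than 1 on the log2 scale as well, 6 members (16.2%) were downregulated and 2 (5.41%) were upregulated, against 3.38% and 4.27% of all tested genes. The 2 upregulated members, Slc9a3 and Slc34a3, met the count filter only through their T + E2 counts. The median log2 fold change of the tested members was -0.14, and that of all tested genes was -0.0021. In either direction 16 members (43.2%) passed the first threshold and 8 (21.6%) passed both, against 19.6% and 7.64% of all tested genes. The groups did not overlap in 23 members (62.2%), among them all 16 that passed, and in 40.7% of all tested genes. Without the 2 mice that carried seminal vesicle transcripts, 7 members were lower and 3 higher, and 6 and 2 passed both thresholds, with Slc4a4 and Slc26a3 in place of Slc26a6 and Slc26a8. The count of lower members was 6 without CON replicate 3 and 7 without T + E2 replicate 2. Calls over all tested genes at an adjusted p under 0.05 also fell from the 3061 of 15580 with all 6 mice. They were 1354 of 15646 without the 2 mice with seminal vesicle transcripts. Without CON replicate 3 they were 1929 of 15864, and without T + E2 replicate 2 they were 1978 of 15844.

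**Figure D1:**
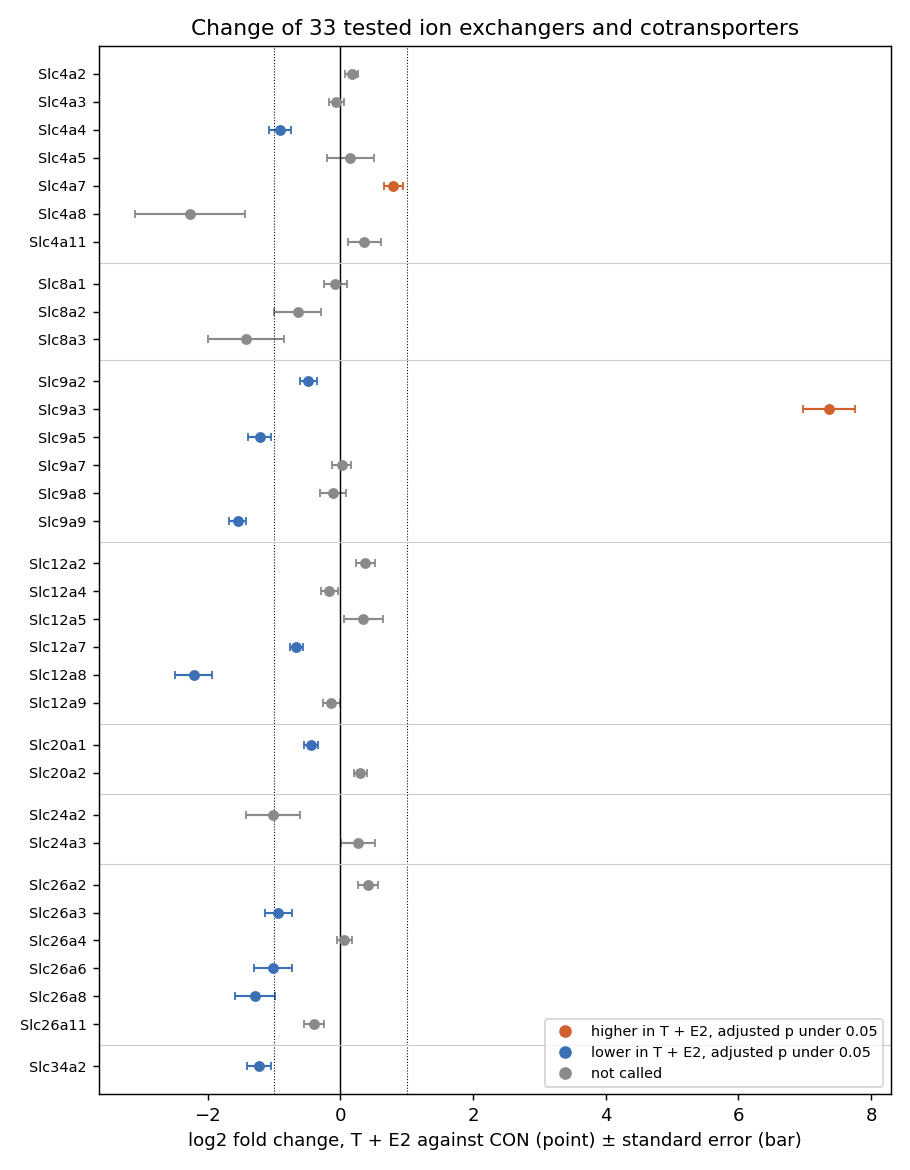
Log2 fold change (T + E2 over CON, point) with its standard error (bar) for 33 tested members in family order, 3 mice per group, orange where called higher, blue where called lower and grey where not called. Slc9a3 lies alone at 7.36, Slc4a8 and Slc12a8 are lowest at -2.26 and -2.21, and Slc34a3, which had no CON counts, is left out.

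The families differed in how many members passed. Among the sodium-hydrogen exchangers (Slc9), 2 of 8 tested members were higher and 4 lower. Among the anion exchangers (Slc26), 0 of 6 were higher and 3 lower, and among the cation-chloride cotransporters (Slc12), 0 of 7 were higher and 2 lower. Of the 7 tested bicarbonate carriers (Slc4), 1 was higher and 1 lower. Of the phosphate cotransporters, 1 of 2 tested Slc34 members was higher and the other lower, and 1 of 2 Slc20 members was lower. None of the 3 Slc8 and 2 tested Slc24 members passed, by edgeR or by DESeq2, though Slc8a3 and Slc24a2 had an unadjusted p under 0.05 in edgeR. Among members without an edgeR call, DESeq2 called Slc12a2 and Slc4a1 higher and Slc4a8 lower. No test compared the families with each other.

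The sodium-hydrogen exchangers swap extracellular sodium for intracellular hydrogen ions. Slc9a3 (ENSMUSG00000036123, chromosome 13, 74121515 to 74166064) encodes the exchanger of the apical membrane of gut and kidney tubule that absorbs sodium. It had 17, 9 and 7 counts in CON mice against 2440, 1639 and 1308 in T + E2 mice. In FPKM this was 0.461, 0.243 and 0.175 against 64.7, 39.8 and 35.5. The T + E2 mice differed among themselves by less than 2-fold and every one lay far above the CON mice. The log2 fold change was 7.36 (SE 0.39, adjusted p = 2.35e-05), a 164-fold difference in fitted level, and it passed in every alternative run. Its CON counts alone would not have met the filter, so Slc9a3 entered the test only through its T + E2 counts. By mean FPKM Slc9a3 moved from rank 32 to rank 2 of the 52 members. Its share of the FPKM summed over the Slc9 family was 0.267 to 0.621% in CON mice against 37.8 to 57.0% in T + E2 mice.

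Markers of kidney tubule, epididymis and urothelium were read beside Slc9a3, and no gut markers were read. All 5 kidney tubule markers were too low for the edgeR test, with a summed 0.189 to 0.265 CPM in the CON group against 0.801 to 1.16 CPM in the T + E2 group, and Umod and Kap were at 0 in every mouse. Lrp2 had no counts in the CON mice and 12, 8 and 4 after T + E2, and DESeq2 called it higher. The 9 epididymis markers summed to 0 to 1.05 CPM and 5.11 to 11 CPM, and Lcn5, Lcn8, Lcn9, Gpx5, Cst8 and Rnase9 were at 0 in every mouse. Adam7, the only one of the 9 that could be tested, had no counts in the CON mice and 158, 81 and 139 after T + E2. It was higher (adjusted p = 0.00065 from edgeR) and entered the test only through its T + E2 counts. Of the 5 urothelial markers 3 could be tested, and all 3 were higher. All 5 summed to 422 to 642 CPM in the CON group against 1374 to 1700 CPM in the T + E2 group. Upk1a and Upk1b made up nearly all of this sum. Upk3a and Krt20, too low for the edgeR test, were high mainly in T + E2 replicate 2, with 99 and 120 counts. Replicates 1 and 3 of that group held 5 and 3 counts of Upk3a, and 6 and 1 of Krt20. No CON mouse held Upk3a counts, while Krt20 had 2, 3 and 4 there. DESeq2 called Upk3a higher. The part of urothelial, epididymal or kidney cells in the rise of Slc9a3 was not tested.

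Slc9a2, another apical exchanger of epithelia, was the most abundant sodium-hydrogen exchanger of the CON mice, with 34.5, 41.9 and 32.0 FPKM. In the T + E2 mice it had 23.1, 22.8 and 29.7 FPKM, so the groups did not overlap, and its log2 fold change was -0.48 (SE 0.13, adjusted p = 0.0383). The FPKM of Slc9a3 divided by that of Slc9a2 was 0.00549 to 0.0133 in CON mice against 1.19 to 2.81 in T + E2 mice. Slc9a5 (ENSMUSG00000014786, chromosome 8, 105348258 to 105369881), an exchanger known mainly from neurons, had 143, 152 and 174 counts in CON mice against 60, 64 and 75 in T + E2 mice. The log2 fold change of Slc9a5 was -1.22 (SE 0.17, adjusted p = 0.00213), with little spread in either group.

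Other family members act inside the cell. Slc9a9 (ENSMUSG00000031129, chromosome 9, 94669909 to 95230445), the exchanger of late endosomes, had 43.0, 32.8 and 39.1 CPM in CON mice against 13.6, 13.9 and 11.7 CPM in T + E2 mice. It fell 2.93-fold, with a log2 fold change of -1.55 (SE 0.13, adjusted p = 0.000232), and passed in every alternative run. Slc9a7 and Slc9a8 of the Golgi apparatus had log2 fold changes of 0.02 and -0.12 with overlapping groups and did not pass.

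**Figure D2:**
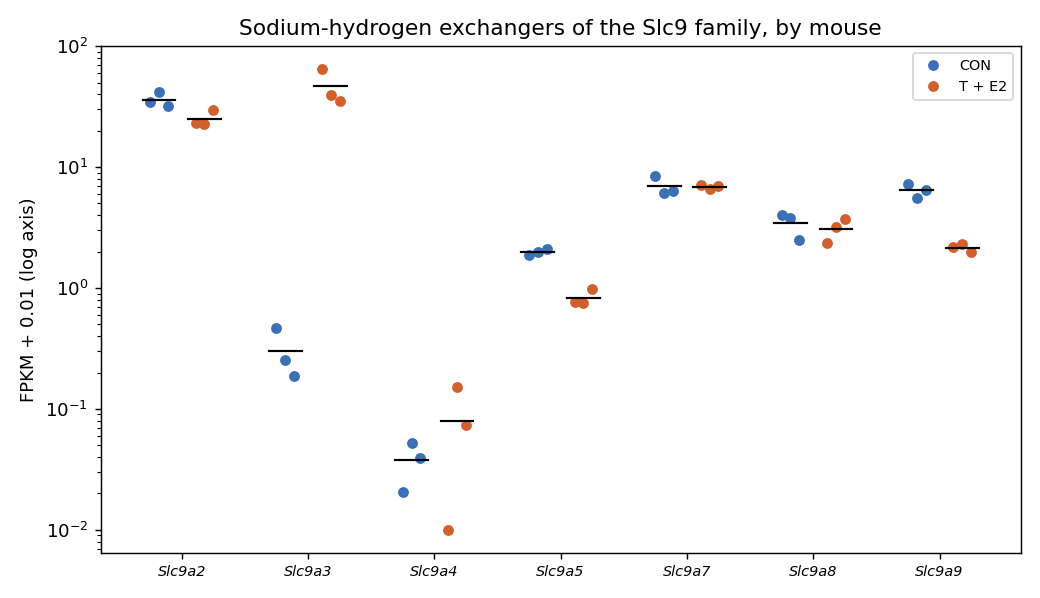
FPKM + 0.01 of 7 Slc9 members in each mouse on a log axis, with points for mice (blue CON, orange T + E2) and a line at the group mean. Slc9a3 moves from under 0.5 FPKM in the CON group to over 35 FPKM in the T + E2 group, while Slc9a2, Slc9a5 and Slc9a9 lie lower in all 3 T + E2 mice and the others shown overlap.

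Phosphate enters cells with sodium through Slc34 and Slc20 carriers. Slc34a2 (ENSMUSG00000029188, chromosome 5, 53038081 to 53071664), the phosphate carrier of lung and gut epithelium, had 226, 226 and 317 counts in CON mice against 85, 119 and 121 in T + E2 mice. Every T + E2 mouse was lower than every CON mouse, and the log2 fold change was -1.23 (SE 0.18, adjusted p = 0.00276). Slc34a3 (ENSMUSG00000006469, chromosome 2, 25228898 to 25234364), a phosphate carrier known from the kidney, had no counts in CON mice against 14, 13 and 12 counts in T + E2 mice (adjusted p = 0.00311). Against a floor of 3 counts per library its expression was at least 4.38-fold higher, and it entered the test only through its T + E2 counts. The level stayed low, at 0.231 to 0.272 FPKM in the T + E2 group, below the 1.08 to 1.57 FPKM of Slc34a2 in the same mice. The summed kidney tubule markers given above were also higher in all 3 T + E2 mice. The part of kidney tubule cells in the counts of Slc34a3 was not tested.

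Slc20a1 and Slc20a2 encode the phosphate carriers found in most tissues. Slc20a2 was the more abundant, with 22.4, 22.6 and 19.4 FPKM in CON mice against 25.3, 24.1 and 27.8 FPKM in T + E2 mice. Its groups did not overlap, but its log2 fold change of 0.30 (SE 0.10, adjusted p = 0.0619) missed the threshold. Slc20a1 was lower (log2 fold change -0.45, SE 0.10, adjusted p = 0.0219). The FPKM of Slc20a2 divided by that of Slc20a1 was 11.4 to 13.3 in CON mice against 19.2 to 21.4 in T + E2 mice.

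**Figure D3:**
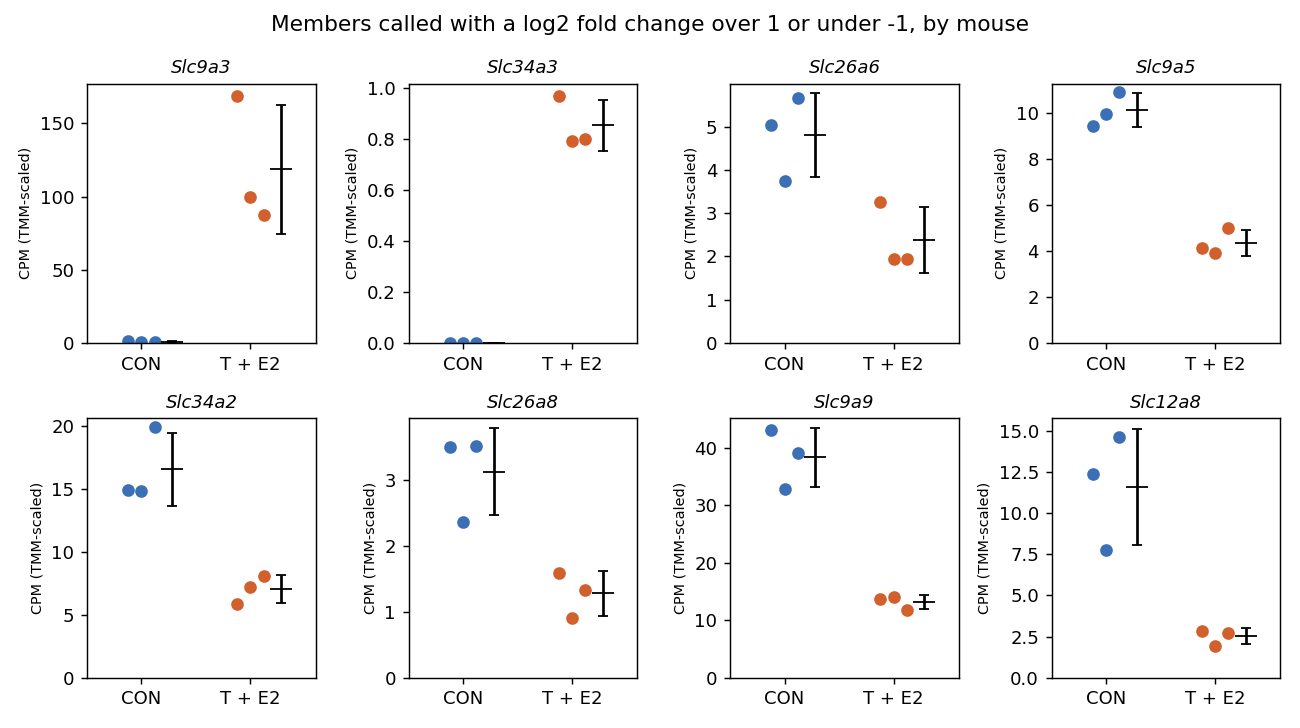
CPM of the 8 members past both thresholds in each mouse on linear axes that start at 0, with points for mice (blue CON, orange T + E2) and the mean with its SD beside them. Slc9a3 and Slc34a3 are higher in all 3 T + E2 mice, and the other 6 are lower in all 3.

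Among the cation-chloride cotransporters, Slc12a2 encodes the carrier that loads secretory epithelial cells with sodium, potassium and chloride. It was by far the most abundant member, holding 53.6 to 62.6% of the FPKM summed over all 52. It had 266, 292 and 204 FPKM in CON mice against 300, 308 and 356 FPKM in T + E2 mice. The groups did not overlap, and the log2 fold change of 0.38 (SE 0.14, adjusted p = 0.0915) missed the threshold in the edgeR test while DESeq2 gave an adjusted p of 0.0323. Other genes of the family encode potassium-chloride cotransporters, which let chloride out, and no test compared their changes with each other. Slc12a7 was lower (log2 fold change -0.67, SE 0.10, adjusted p = 0.00276), and Slc12a4 and Slc12a5 had log2 fold changes of -0.17 and 0.34 and did not pass. The FPKM of Slc12a2 divided by that of Slc12a7 was between 29.4 and 44.1 in CON mice and between 74.5 and 79.1 in T + E2 mice.

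Slc12a8 (ENSMUSG00000035506, chromosome 16, 33517328 to 33664135), a distant member of the family also reported as a carrier of nicotinamide mononucleotide, showed the largest fall of the members that passed. Counts were 187, 118 and 233 in CON mice against 41, 32 and 41 in T + E2 mice. The spread was wide in the CON group but the groups stayed apart, with a log2 fold change of -2.21 (SE 0.28, adjusted p = 0.00149), or 4.63-fold. Slc12a9, whose protein is known as a partner of the cotransporters, had a log2 fold change of -0.14 and did not pass. Slc12a7, which was lower, lies on chromosome 13, 304771 bases from Slc9a3, which was higher. Genes outside these families that may lie between them were not examined.

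Bicarbonate carriers set the pH of cells and secretions. Slc4a7, an electroneutral sodium-bicarbonate cotransporter, was higher, with 7.07, 6.34 and 5.49 FPKM in CON mice against 9.09, 12.7 and 10.2 FPKM in T + E2 mice. Its log2 fold change was 0.80 (SE 0.14, adjusted p = 0.00628). The electrogenic cotransporter Slc4a4 was lower, with 1.26, 1.13 and 1.04 FPKM against 0.463, 0.717 and 0.591 FPKM. The log2 fold change of Slc4a4 was -0.91 (SE 0.17, adjusted p = 0.00877). The FPKM of Slc4a7 divided by that of Slc4a4 was between 5.29 and 5.62 in CON mice and between 17.2 and 19.6 in T + E2 mice. The chloride-bicarbonate exchangers Slc4a2 and Slc4a3 had log2 fold changes of 0.17 and -0.06 and did not pass. Slc4a5 and Slc4a11 had 0.15 and 0.36 and did not pass either.

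Slc4a8, a sodium-driven chloride-bicarbonate exchanger, had the lowest log2 fold change of any member without passing (-2.26, SE 0.83, adjusted p = 0.0933). CON replicate 2 had 169 counts, where the other CON mice had 32 and 21 and the T + E2 mice 7, 15 and 24. Without CON replicate 2 the log2 fold change was -0.77 (adjusted p = 0.36). DESeq2 over all mice gave an adjusted p of 0.00939. CON replicate 2 is 1 of the 2 mice with seminal vesicle transcripts, whose part in the high count was not tested.

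The Slc26 exchangers carry chloride, bicarbonate, sulfate and oxalate. Slc26a4, the chloride-bicarbonate and iodide exchanger known as pendrin, was the most abundant of them, with 27.5, 36 and 29.6 FPKM in CON mice against 29.1, 31.2 and 34 FPKM in T + E2 mice. The groups overlapped and the log2 fold change was 0.06 (SE 0.11, adjusted p = 0.768). Slc26a3, the chloride-bicarbonate exchanger of the colon, lies 45909 bases from Slc26a4 on chromosome 12 and was lower. It had 6.19, 3.92 and 5.48 FPKM against 3.03, 2.80 and 2.08 FPKM (log2 fold change -0.94, SE 0.21, adjusted p = 0.0174).

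Slc26a6 (ENSMUSG00000023259, chromosome 9, 108853283 to 108913049), an exchanger of chloride for bicarbonate and oxalate, had 76, 57 and 90 counts in CON mice against 47, 32 and 29 in T + E2 mice. The gap between the groups was small, and the log2 fold change was -1.02 (SE 0.28, adjusted p = 0.0403). Slc26a8 (ENSMUSG00000036196, chromosome 17, 28637783 to 28689987), an anion transporter known from male germ cells, had 53, 36 and 56 counts in CON mice against 23, 15 and 20 in T + E2 mice. Its log2 fold change was -1.29 (SE 0.30, adjusted p = 0.0215). The sulfate carriers Slc26a2 and Slc26a11 had log2 fold changes of 0.41 and -0.40, and neither passed.

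The sodium-calcium exchangers gave no call with all 6 mice. Slc8a1, which extrudes calcium in heart and smooth muscle, was the most abundant, at 1.96 to 2.55 FPKM in the 6 mice, with a log2 fold change of -0.08. Slc8a2 and Slc8a3, known mainly from brain and skeletal muscle, had log2 fold changes of -0.65 and -1.42 and adjusted p values of 0.235 and 0.122. Without T + E2 replicate 3, Slc8a3 passed with a log2 fold change of -2.38 (adjusted p = 0.0294). Slc24a2, a potassium-dependent exchanger of neurons, had 82, 75 and 49 counts in CON mice against 14, 50 and 39 in T + E2 mice (log2 fold change -1.01, adjusted p = 0.122). Slc24a3 had a log2 fold change of 0.26. Slc9a5 was lowest in T + E2 replicate 2, with 4.15, 3.90 and 5.01 CPM in T + E2 replicates 1, 2 and 3. T + E2 replicate 1 was the lowest mouse for Slc8a2, Slc8a3, Slc24a2 and Slc4a8. The same mouse had the lowest summed CPM of 6 neuron markers, 57.1, where the other T + E2 mice had 151 and 160 and the CON mice 267 to 322. All 6 neuron markers were lower in the T + E2 group by more than 1 on the log2 scale. The part of nerve tissue in the values of these genes and of Slc9a5 was not tested.

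Some of the calls were lost when a mouse was left out, among small and larger changes alike. With 1 mouse left out at a time, Slc9a3, Slc34a3, Slc12a8, Slc9a9, Slc34a2, Slc9a5, Slc4a7, Slc4a4 and Slc12a7 passed in all 6 fits. Slc26a3 did not pass without CON replicate 3 or without T + E2 replicate 2 (adjusted p = 0.0586 and 0.0553). Slc26a6 did not pass without CON replicate 1 or 3 or without T + E2 replicate 2 or 3 (adjusted p = 0.0881 to 0.128), and the same mice ended the call of Slc26a8 (adjusted p = 0.0531 to 0.0735). For Slc9a2 and Slc20a1 the call held only without T + E2 replicate 3, and the other 5 fits gave adjusted p values of 0.0511 to 0.119. Each of these kept its direction in all 6 fits.

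Levels were concentrated in few members. A mean of at least 1 FPKM was reached by 25 members in the CON group against 24 in the T + E2 group, and at least 10 FPKM by 5 and 6. Over all 6 mice the 5 highest means were those of Slc12a2, Slc26a4, Slc9a2, Slc9a3 and Slc20a2. In the CON group the ranges of Slc26a4 and Slc9a2 overlapped in FPKM, with Slc9a2 the higher in each of the 3 mice. Slc9a3 in the T + E2 group lay above both, though its lowest value of 35.5 FPKM was close to the 34 FPKM reached by Slc26a4. The 25 tested members with at least 1 FPKM in the CON group included 12 of the 16 calls, and the 12 tested members below it included the other 4. The median coefficient of variation of the tested members was 13.2% in the CON group against 15% in the T + E2 group.

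**Figure D4:**
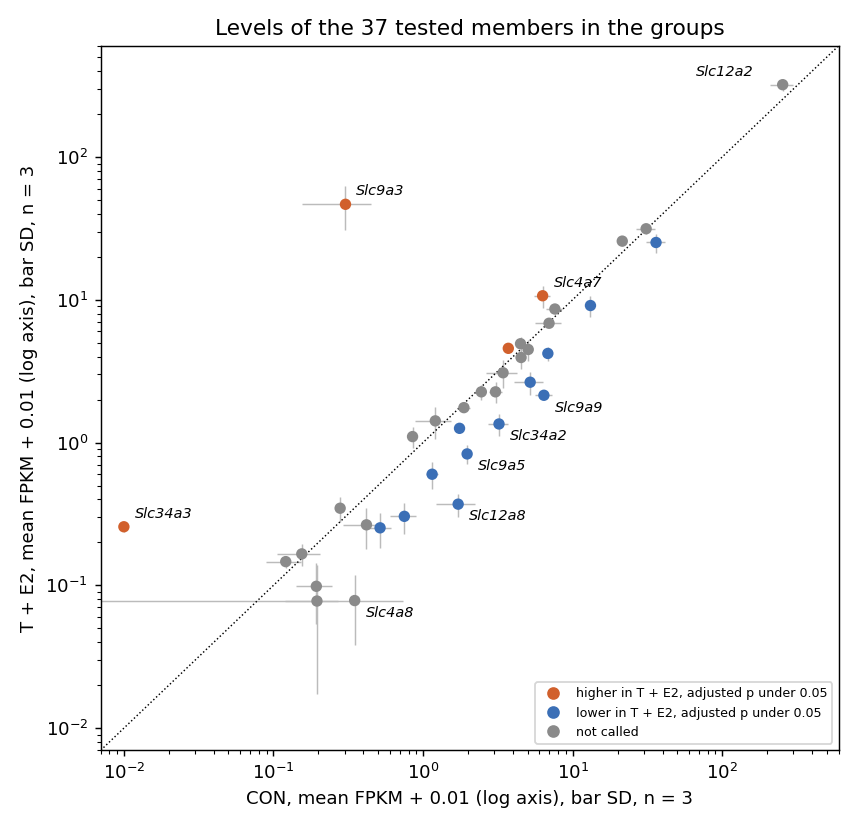
Mean FPKM + 0.01 of the 37 tested members in the T + E2 group against the CON group on log axes, with bars for the SD over 3 mice and a dotted line of equal level. Slc12a2 is the highest in both groups, Slc9a3 and Slc34a3 stand far above the line, and the wide horizontal bar belongs to Slc4a8.

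The other 15 members had too few counts to test. Slc26a5 had none in any mouse, and 9 of the 15, Slc26a5 among them, had at most 3 counts in every mouse: Slc12a1, Slc24a1, Slc24a4, Slc24a5, Slc26a1, Slc26a5, Slc26a7, Slc26a9 and Slc34a1. Slc4a9, Slc4a10, Slc9a4, Slc12a3 and Slc26a10 had up to 15 counts in some mouse. Slc26a10 had 9, 14 and 11 counts in CON mice against 3, 4 and 1 in T + E2 mice. With no filter on low counts, edgeR called Slc26a10 lower (adjusted p = 0.0405) and Slc4a1 higher (adjusted p = 0.0070). Slc4a1, the anion exchanger of red cells, had 1, 2 and 1 counts in CON mice against 11, 27 and 9 in T + E2 mice, a ratio of scaled totals of 11.5 with a 95% interval of 4.22 to 44.1 for counting error only. The summed CPM of 6 red cell markers was 53.9 to 66.2 in the CON group and 133, 421 and 137 in the T + E2 mice, and all 5 that could be tested were higher. T + E2 replicate 2 was highest both for Slc4a1 and for these markers, and the part of blood in the Slc4a1 counts was not tested.

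Genes that work with these carriers were taken as fixed lists, chosen with earlier results of these data known. Beside the counts of each list, 10.4% of all 15580 tested genes were higher and 9.25% were lower. No list was tested as a set. Among 8 tested genes of chloride and bicarbonate secretion, 4 were higher and 1 lower. Car12, a carbonic anhydrase of the cell surface, rose (log2 fold change 2.46, SE 0.18, adjusted p = 0.000111), as did the water channel Aqp5 (1.80, SE 0.19, adjusted p = 0.00066). The cytosolic carbonic anhydrase Car2 fell from 97.6 ± 3.17 to 8.75 ± 1.22 CPM (SD, n = 3), with a log2 fold change of -3.48 (SE 0.12, adjusted p = 4.56e-06 from edgeR). The potassium channel Kcnq1 rose by 0.90 and the chloride channel Ano1 by 0.87 on the log2 scale. The chloride channel Cftr had too few counts to test. Among the beta subunits of the sodium pump, Atp1b3 rose by 0.87 on the log2 scale (SE 0.08, adjusted p = 0.000374). Atp1b2, known from glia, was lower, with a log2 fold change of -1.0 (SE 0.20, adjusted p = 0.0117). The neuron markers given above were also lower, and no glial markers were read. The part of nerve tissue in the fall of Atp1b2 was not tested. Atp1b1 had a log2 fold change of 0.07 and did not pass.

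The WNK kinases switch Slc12 carriers on or off by phosphorylation. Of 12 genes of this pathway 3 were higher and none lower by edgeR, and DESeq2 also called Cab39l higher and Cab39 lower, both with an unadjusted p under 0.05 in edgeR. The 3 were the ubiquitin ligase Nedd4l (log2 fold change 0.90, adjusted p = 0.00292), the kinase Wnk2 (0.77, adjusted p = 0.0186) and the hormone-regulated kinase Sgk1 (0.51, adjusted p = 0.0433). Without CON replicate 1 or without CON replicate 3, 1 of the 12 was higher. The kinases Stk39 and Oxsr1, which act directly on the carriers, had log2 fold changes of 0.06 and -0.04. Among 9 tested scaffolds and activity partners, Ahcyl2, which binds bicarbonate carriers, was higher (log2 fold change 0.81, adjusted p = 0.00353). Slc9a3r2, a scaffold of the Slc9a3 protein, was lower (-0.97, adjusted p = 0.00171), while the related scaffold Slc9a3r1 had a log2 fold change of -0.02. Ezr, which links membrane proteins to the cytoskeleton, had a log2 fold change of -0.31 (adjusted p = 0.0981 by edgeR) and was called lower by DESeq2. In phosphate handling, the alkaline phosphatase Alpl (0.81) and the phosphate exporter Xpr1 (0.51) were higher among 5 tested genes and none was lower by edgeR, by DESeq2 or at an unadjusted p under 0.05. No gene of that list passed as higher without CON replicate 3 or without T + E2 replicate 1, and 1 did without T + E2 replicate 2. Of the exchangers related to Slc9 and Slc8 but outside these families, Slc9b2 and Slc8b1 could be tested and neither passed by edgeR or DESeq2, Slc9b2 having an unadjusted p under 0.05 in edgeR.

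**Figure D5:**
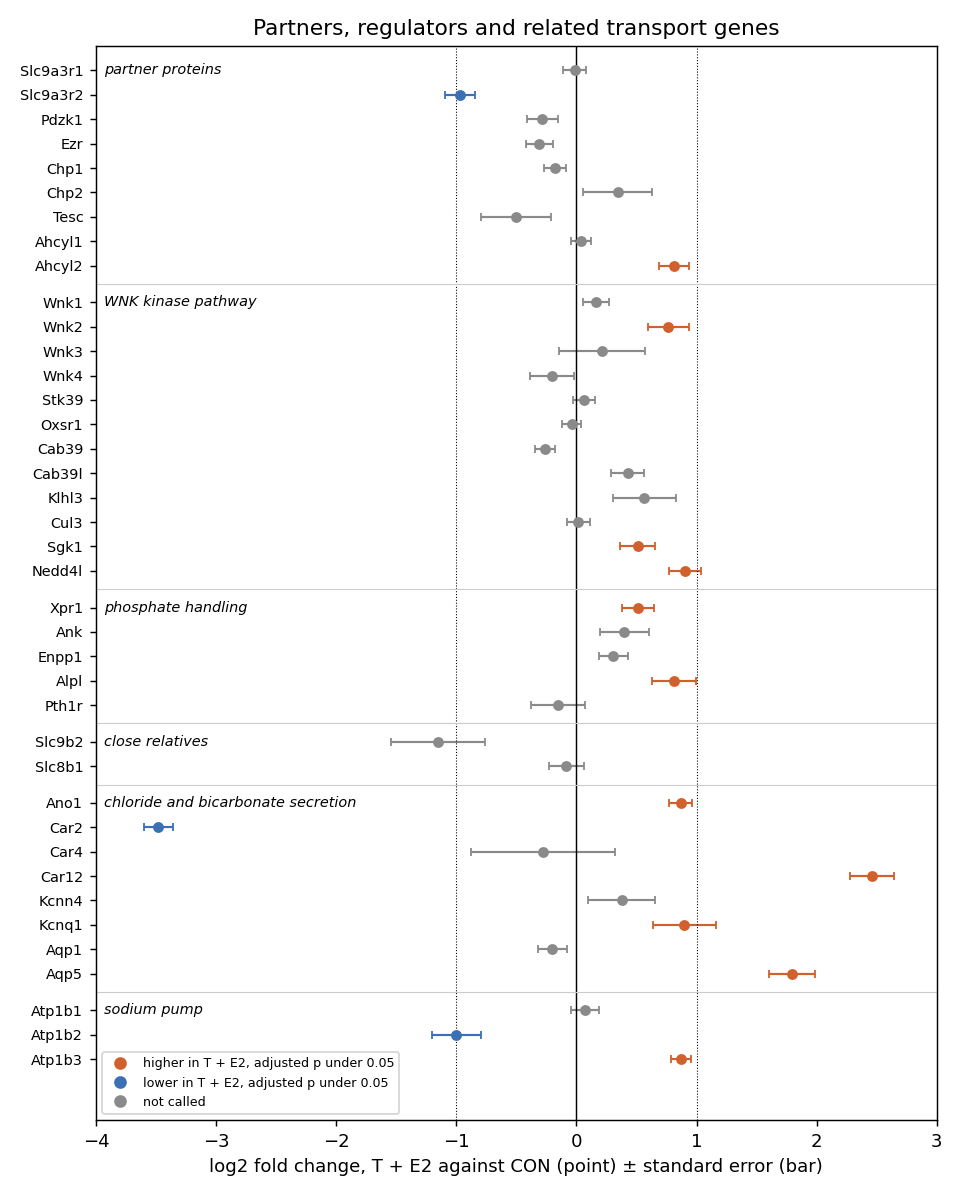
Log2 fold change (T + E2 over CON) with SE of tested genes of 6 fixed lists. Orange genes were called higher, blue genes lower and grey genes neither, and Car2 at -3.48 and Car12 at 2.46 are the extremes.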

How the data were processed

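RNA of 6 mouse prostates was sequenced as paired-end libraries. Per the file headers, the authors deposited whole-number counts per gene and FPKM for each mouse, and the FPKM equals the count divided by gene length and library total. The submitters' processing notes name TopHat, Bowtie2 and HTSeq without versions. The annotation and strand setting are not given in the sources used here, and coordinates were matched to GENCODE M21 (GRCm38), where 34267 identifiers occur. Reads of members overlapping a gene on the opposite strand, such as Slc4a2 with Fastk and Slc20a2 with Smim19, may be shared.

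Counts were filtered with filterByExpr (15580 genes kept), scaled by TMM and tested with edgeR 4.0.16 (quasi-likelihood, Benjamini-Hochberg over all tested genes) in R 4.3.3. SE is the log2 fold change over the root of F. DESeq2 1.42.0 and limma 3.58.1 were alternatives, as were other scalings, filters and thresholds, a replicate block and left-out mice. Figures were drawn with matplotlib 3.10.9. Each mouse is a separate animal and no batch is labelled. Exact permutation with 3 against 3 cannot go below 0.1. The procedure was tested on simulated data.

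The members and lists were chosen with earlier results of these data known. Named with every mouse's value are members past both thresholds and the 5 highest by mean FPKM, then other members that passed, and up to 4 passing genes per list with the largest change. Further genes and values were chosen after the values were seen. Some genes are not reported here.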

Additional observations from a re-analysis of the deposited data

How the results depend on the processing

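The counts of members past the thresholds (2 upregulated, 6 downregulated, 4 higher and 12 lower at an adjusted p under 0.05) stayed within 1.5 times under median-of-ratios scaling, total count scaling, no filter on low counts, DESeq2, limma on log2(FPKM + 0.1) and a fold threshold of 1.5. An FPKM of at least 1 in 3 samples left 1 upregulated member, since Slc34a3 is below it. Limma on log2(FPKM + 1), which shrinks changes of low genes, left 1 upregulated and 1 downregulated. With 1 mouse left out at a time, 2 to 3 members were upregulated, 4 to 7 downregulated, 3 to 5 higher and 6 to 11 lower. The lowest count of lower members, 6, came without CON replicate 3, and 7 came without T + E2 replicate 2. Leaving out CON replicate 2 and T + E2 replicate 2 together, an alternative chosen after seeing the data, gave 7 lower members, from 2 mice in each group. Calls over all tested genes also fell in these fits, from 3061 with all 6 mice to 1929, 1978 and 1354 in the order given.

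The replicate numbers name separate mice, and same-numbered mice did not deviate together (correlations -0.0516, 0.0275 and 0.0463, and not every mouse correlated best with its own number). With the replicate block 2 members were upregulated, 5 downregulated, 3 higher and 9 lower.

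No named member changed direction while called, and the cause of lost calls was not tested. Of the results for single members under the alternatives, 233 kept their side of the thresholds, 48 lost it and 1, that of Slc12a2 under DESeq2, gained it. The 15 untested members had too few counts for the edgeR test and are not shown to be unchanged.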
